A study of Mus musculus with 12 samples.

Results

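Cytokine receptor chains were examined in the RNA-seq of CD24hiTCRβlo CD4+CD8+ pre-selection thymocytes from C57BL/6 mice with mutations of Bcl11b, a zinc-finger transcription factor of the T lineage. The 10 genes, taken by symbol from a table of 23234 features, were Il7r, Il2ra, Il2rb, Il2rg, Il4ra, Il6ra, Il6st, Il15ra, Il21r and Ifngr1. The wild-type group held 5 libraries from newborn thymus. The Bcl11bm/m group held 3 libraries from newborn thymus of homozygotes for an allele whose product lacks the last zinc finger, the result of an accidental frameshift in the targeting construct, and carried in all cells, so that cells earlier than the CD4+CD8+ stage were mutant too. The Bcl11bfl/fl:Cd4-Cre group, called cKO as in the sample titles, held 4 libraries of thymocytes in which floxed Bcl11b is removed by a Cre under Cd4 control, which acts around the CD4+CD8+ stage, and the labels give no age for these mice, while the study's general methods for sorting describe mice some weeks old. Age and genotype therefore cannot be told apart in any comparison with that group. The titles and the design text set the groups, since the descriptions attached to wild-type and cKO libraries name a genotype that differs from the titles.

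Cytokine receptors of this kind are assembled from chains that are made from separate genes. A private chain, such as IL-7Rα, gives specificity for a cytokine, and a shared chain, such as the common γ chain encoded by Il2rg or gp130 encoded by Il6st, joins it so that Janus kinases bound to the chains can activate STAT factors. In the thymus, IL-7Rα and CD25 (Il2ra) are features of CD4-CD8- (DN) precursors. IL-7Rα is switched off as thymocytes become CD4+CD8+ and returns after positive selection, and CD4+CD8+ cells are known for their poor response to cytokines. Responses to cytokine were not measured in these libraries.

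Expression was read as FPKM, fragments scaled by transcript length and library size, which allows levels of different genes to be set side by side. Differences are those of mean log2(FPKM + 1), tested with limma over the 10780 features that averaged 1 FPKM or more across all 12 libraries, and a call means a Benjamini-Hochberg adjusted p-value under 0.05. Of the 10 receptor genes, 8 passed that filter, and Il2rb and Il6ra did not. Il7r passed through its mutant libraries alone, so its place among the tested genes already depended on its being high there. The estimated depth was 3670000 to 6390000 fragments in wild-type, 2520000 to 3890000 in Bcl11bm/m and 10130000 to 41960000 in cKO libraries. Bcl11b itself read 132 to 292 FPKM in wild-type, 430 to 482 in Bcl11bm/m and 115 to 140 in cKO libraries, and a value per gene does not show which exons the fragments came from. Nothing in the labels says that libraries of a group came from separate animals, so p-values measure the spread between these libraries, which may be technical. In bulk libraries, fewer cells carrying a transcript and less of it per cell cannot be told apart.

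In wild-type pre-selection thymocytes, the levels of the receptor genes formed 4 steps whose ranges did not overlap, with overlapping ranges between neighbours inside a step. Ifngr1, the ligand-binding chain of the interferon-γ receptor, had the highest mean level at 282 ± 53.0 FPKM (SD, n = 5), above 99.1% of all features, and Il2rg followed at 239 ± 26.3 FPKM (SD, n = 5). The second step held Il21r, Il6st and Il4ra, with means of 76.9, 47.7 and 40.6 FPKM, and the third held Il2ra at 3.73 and Il15ra at 2.0 FPKM. Il6ra, Il2rb and Il7r were lowest, at 0.206 FPKM or less in each wild-type library. In Bcl11bm/m thymocytes Il2ra held the third place and overlapped Il6st, and Il7r had moved up from the last place to a level that overlapped those of Il4ra and Il21r.

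**Figure D1:**
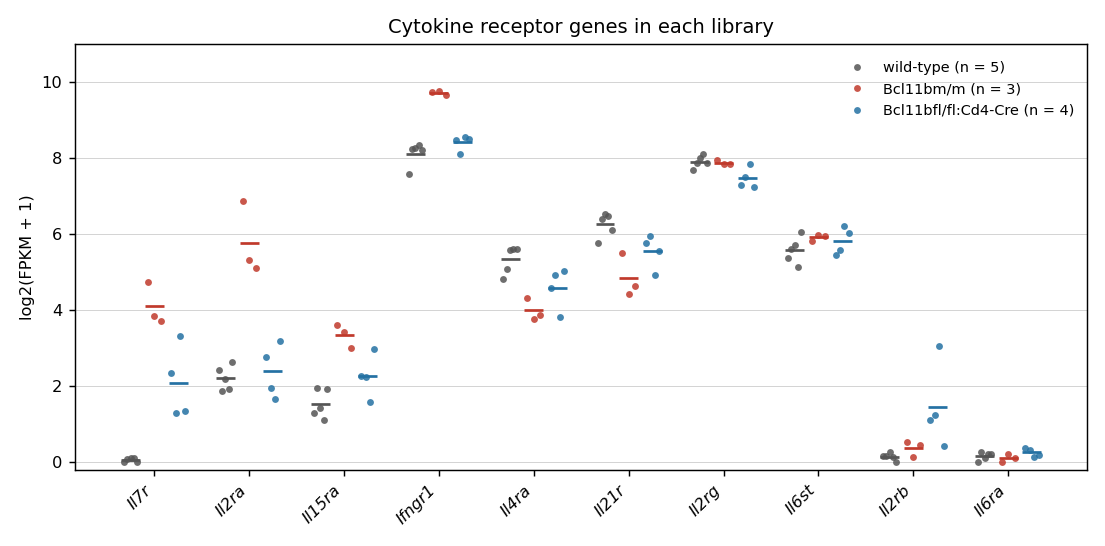
Expression of the 10 receptor genes as log2(FPKM + 1) in every library, with wild-type in grey (n = 5), Bcl11bm/m in red (n = 3) and cKO in blue (n = 4); points are libraries and bars are group means. Il7r is near 0 in the wild-type libraries and lies between 12.2 and 25.8 FPKM in Bcl11bm/m, whereas Il2rg stays high in every group.

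Against wild-type, 6 of the 8 tested receptor genes were called in Bcl11bm/m, where 17.3% of all tested features were called. Il7r, Il2ra, Il15ra and Ifngr1 rose, in a comparison in which 9.92% of tested features were called higher, and Il4ra and Il21r fell, where 7.39% were called lower. The same 6 genes had ranges that did not overlap between Bcl11bm/m and wild-type, as did 25.4% of tested features. In cKO thymocytes, Il7r was the only receptor gene of the 8 that was called, and it rose, where 14.5% of tested features were called, 4.65% higher and 9.86% lower (501 of 1564 calls higher, but 835 of 1799 with median-ratio scaling). It was also the only tested receptor gene without overlap with wild-type, as found for 16.1% of features. Both comparisons use the same 5 wild-type libraries. Directly compared, Bcl11bm/m exceeded cKO in 2 called receptor genes, Il2ra and Ifngr1, where 10.2% of tested features were called, 7.63% higher and 2.6% lower (822 of 1102 calls higher, but 562 of 1090 with median-ratio scaling), and 5 receptor genes did not overlap, against 26.7% of features. The number called rose from 1 to 4 for cKO against wild-type without wild-type library 1 and to 2 without cKO library 2 or 4, and from 2 to 5 between the mutants without cKO library 3 and to 3 without cKO library 4. The background depended on single libraries too. In Bcl11bm/m against wild-type, 1866 features were called, but 1192 without Bcl11bm/m library 1 and 998 without library 2, with the 6 receptor genes called each time. In cKO against wild-type, the 1564 called features became 2693 without wild-type library 1, 955 and 867 without wild-type libraries 2 and 5, and 725, 768 and 777 without cKO libraries 1, 3 and 4. Between the mutants, the 1102 became 306 and 288 without Bcl11bm/m libraries 2 and 3, and 416, 663 and 728 without cKO libraries 1, 2 and 4.

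**Figure D2:**
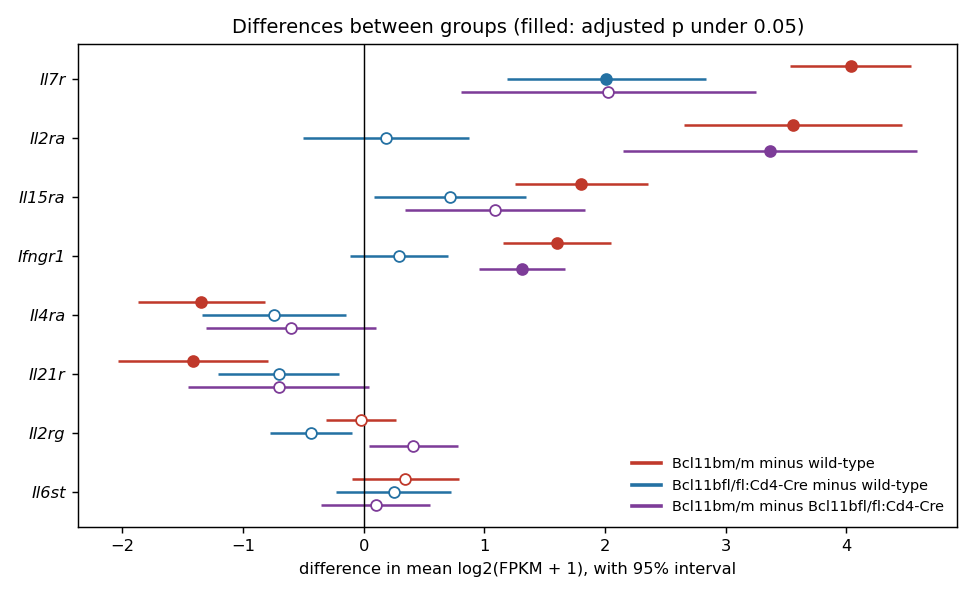
Difference in mean log2(FPKM + 1) between groups for the 8 receptor genes that passed the filter, with 95% intervals; filled points have an adjusted p-value under 0.05. Red compares Bcl11bm/m with wild-type, blue cKO with wild-type, and purple the mutants with each other. Il7r stands at 4.04 and 2.01 against wild-type, and Il2ra at 3.55 and 0.19.

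Il7r encodes the α chain of the receptors for IL-7 and for thymic stromal lymphopoietin. The gene lies on the minus strand at chr15:9435916-9459631 (NCBIM37). The 250 bases before its RefSeq start, read from the RefSeq promoter table (GRCm38.p6) and found once in NCBIM37 at chr15:9459632-9459881, are shown because Il7r had the largest rise among the receptor genes. The capitals mark TTCNNNGAA, the letters of a STAT site, which read the same on both strands and lay at -142 to -134, where -1 is the base before the start.
Il7r: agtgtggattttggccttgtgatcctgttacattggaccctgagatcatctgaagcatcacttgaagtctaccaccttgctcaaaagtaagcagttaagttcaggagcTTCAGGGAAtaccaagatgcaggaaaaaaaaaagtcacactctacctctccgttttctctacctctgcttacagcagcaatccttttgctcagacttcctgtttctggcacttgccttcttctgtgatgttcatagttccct
Among 32851 RefSeq windows of 250 bases, 7.02% held TTCNNNGAA, and among the 9 receptor genes with a window only that of Il7r did. A match of letters is a description and not evidence of binding.

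Wild-type libraries 1 to 5 had Il7r at 0.0119, 0.0537, 0.0833, 0.0885 and 0 FPKM. The Bcl11bm/m libraries read 25.8, 13.3 and 12.2 FPKM. The cKO libraries 1 to 4 read 4.08, 1.45, 8.96 and 1.55 FPKM. The 3 groups were thus fully separated, with wild-type lowest and Bcl11bm/m highest, and library 3 of the cKO group came nearest to Bcl11bm/m. Each wild-type value corresponded to about 1 fragment or less and lay under the level that 3 fragments would give, 0.196 FPKM on average. Set against that floor, Il7r was at least 87.2-fold higher in Bcl11bm/m and at least 20.5-fold higher in cKO thymocytes. The first bound was 65.2-fold without Bcl11bm/m library 1, and the second was 12-fold without cKO library 3. The differences on the log2(FPKM + 1) scale were 4.04 (SE 0.22, limma adjusted p = 1.52e-05) and 2.01 (SE 0.37, adjusted p = 0.00857). With a pseudocount of 0.1 in place of 1 they were 6.83 (adjusted p = 1.63e-05) and 4.46 (adjusted p = 0.0031). The level was 4.26-fold higher in Bcl11bm/m than in cKO thymocytes, and that difference missed the threshold (2.03, 95% interval 0.80 to 3.25, adjusted p = 0.0517). Without cKO library 3 the ratio of levels was 7.24 and the difference 2.44 with an adjusted p of 0.0161, and over the other libraries left out in turn the difference was 1.71 to 2.21.

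Il2ra, which encodes CD25, the α chain that raises the affinity of the IL-2 receptor, lies on the plus strand at chr2:11564419-11614818. The gene for the IL-15 receptor α chain, Il15ra, follows at chr2:11626914-11655613 on the same strand, 12.1 kb away. The window before the Il2ra start (chr2:11564169-11564418, plus strand) is shown because CD25 was the receptor gene that separated the mutants most. Capitals mark ACCGCA, which with ACCACA gives the letters recognised by Runx factors, searched on both strands.
Il2ra: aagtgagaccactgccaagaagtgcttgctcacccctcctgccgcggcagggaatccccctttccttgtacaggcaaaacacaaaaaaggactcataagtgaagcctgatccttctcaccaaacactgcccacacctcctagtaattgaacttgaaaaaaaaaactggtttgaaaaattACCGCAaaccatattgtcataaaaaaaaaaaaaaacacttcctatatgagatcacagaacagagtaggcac
The letters lay at -71 to -66 from the start. They were also found in the windows of Il21r and Il2rg, so in 3 of the 9 receptor genes with a window, against 18.6% of all windows. The GGAA core of Ets sites was found in 7 of the 9 and in 93.4% of all windows. Il15ra has a pair of windows, and none of the Runx or STAT letters was in either.

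Il2ra read 4.33, 2.68, 3.57, 2.81 and 5.25 FPKM in wild-type libraries 1 to 5. It read 117, 38.7 and 33.5 FPKM in the Bcl11bm/m libraries. In cKO libraries 1 to 4 it read 5.82, 2.87, 2.19 and 8.18 FPKM. All 3 Bcl11bm/m libraries stood far above the others, library 1 highest, and the cKO libraries lay on both sides of the wild-type range. The mean was 16.9-fold higher in Bcl11bm/m than in wild-type thymocytes (log2 difference 3.55, SE 0.39, limma adjusted p = 0.000727) and 13.2-fold higher than in cKO thymocytes (3.37, SE 0.52, adjusted p = 0.0121). Without Bcl11bm/m library 1 these folds were 9.69 and 7.58, and both calls held. Between cKO and wild-type the difference was 0.19, with a 95% interval of -0.50 to 0.87 (adjusted p = 0.723), and it turned to -0.08 without cKO library 4.

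Il15ra, whose product binds IL-15 and presents it to neighbouring cells, read 1.46, 2.84, 1.70, 1.16 and 2.82 FPKM in wild-type libraries. The Bcl11bm/m libraries read 11.2, 9.78 and 7.0 FPKM. The cKO libraries read 3.79, 3.70, 1.98 and 6.86 FPKM. Every Bcl11bm/m library was above every other library, and 3 of the 4 cKO libraries were above the wild-type range. Il15ra rose 4.67-fold in Bcl11bm/m (log2 difference 1.80, SE 0.24, limma adjusted p = 0.00170), although wild-type libraries 3 and 4 lay under the level that 3 fragments on its shortest transcript would give. The difference of cKO from wild-type was 0.72 (95% interval 0.09 to 1.34, adjusted p = 0.117), and that of Bcl11bm/m from cKO was 1.09 (95% interval 0.34 to 1.83, adjusted p = 0.0725). Across the 12 libraries, which share their groups, Il2ra and Il15ra correlated at r = 0.870, and at 0.651 once group means were taken out.

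Il2rb encodes the β chain that the IL-2 and IL-15 receptors share and that is needed for their signal (chr15:78310983-78325496, minus strand). It read 0.115, 0.130, 0.201, 0.0978 and 0 FPKM in wild-type and 0.440, 0.0972 and 0.379 FPKM in Bcl11bm/m libraries. In cKO libraries 1 to 4 it read 1.18, 1.35, 7.37 and 0.354 FPKM. The last group was entirely above wild-type, with library 3 far above the rest of its group. Its range overlapped that of Bcl11bm/m, whose libraries, like the wild-type ones, were all at or under the level that 3 fragments would give. Against the floor of wild-type, the mean was at least 7.71-fold higher in cKO thymocytes, but at least 2.89-fold without cKO library 3. An exact permutation test (two-sided) gave p = 0.0159, the smallest that 4 against 5 libraries allow, unadjusted. With limma and no filter the difference was 1.32 and was not called (adjusted p = 0.119), with adjusted p-values of 0.0411 to 0.129 over the alternatives in which Il2rb was fitted, and a call only without cKO library 4. The exact permutation p-values were 0.179 for Bcl11bm/m against wild-type and 0.171 between the mutants, where 0.0357 and 0.0571 are the smallest possible. The wild-type and Bcl11bm/m libraries were shallower, so a low level there was not detectable at this depth.

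Il2rg encodes the common γ chain, used by the receptors for IL-2, IL-4, IL-7, IL-9, IL-15 and IL-21 (chrX:98459717-98463594, minus strand). The wild-type libraries read 205, 232, 255, 275 and 232 FPKM. The Bcl11bm/m libraries read 246, 227 and 229 FPKM, and the cKO libraries 157, 180, 227 and 149 FPKM. Bcl11bm/m lay inside the wild-type range, and 3 of the 4 cKO libraries lay below it. The differences from wild-type were -0.03 for Bcl11bm/m (95% interval -0.32 to 0.26, limma adjusted p = 0.918) and -0.44 for cKO (95% interval -0.78 to -0.10, adjusted p = 0.0850). The interval in Bcl11bm/m stayed within 0.32 of 0, whereas each called receptor gene differed by 1.35 or more there, and the sign turned under quantile normalization (0.13). All Bcl11bm/m libraries were above all cKO libraries (difference 0.41, adjusted p = 0.139). The annotation places Gm20489 over Il2rg on the same strand, and the table does not list that gene.

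Il4ra, the α chain of the IL-4 and IL-13 receptors, and Il21r, the private chain of the IL-21 receptor, are next to each other on the plus strand at chr7:132695785-132722986 and chr7:132746943-132777084, 24.0 kb apart. Their windows are shown because these were the receptor genes that fell (chr7:132695535-132695784 and chr7:132746693-132746942). Capitals mark ACCACA, at -33 to -28 from the Il21r start, and the Il4ra window held neither the Runx nor the STAT letters.
Il4ra: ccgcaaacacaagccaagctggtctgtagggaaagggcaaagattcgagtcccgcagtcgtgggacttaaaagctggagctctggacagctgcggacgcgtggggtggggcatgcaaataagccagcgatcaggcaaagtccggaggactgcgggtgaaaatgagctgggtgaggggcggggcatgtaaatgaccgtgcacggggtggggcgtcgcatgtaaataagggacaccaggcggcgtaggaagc
Il21r: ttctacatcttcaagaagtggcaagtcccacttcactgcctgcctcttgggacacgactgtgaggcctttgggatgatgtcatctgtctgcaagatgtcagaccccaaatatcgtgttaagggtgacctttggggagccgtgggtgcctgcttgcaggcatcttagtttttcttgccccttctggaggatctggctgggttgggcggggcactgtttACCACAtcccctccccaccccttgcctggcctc
Beyond these letters the windows are distinct sequences, and the data do not bear on what binds them.

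The wild-type libraries had Il4ra at 27.0, 33.1, 46.8, 48.0 and 48.0 FPKM. The Bcl11bm/m libraries had 19.1, 12.7 and 13.7 FPKM. The cKO libraries had 23.0, 29.6, 13.2 and 31.8 FPKM. All Bcl11bm/m libraries were below all wild-type libraries, and the cKO libraries reached from the Bcl11bm/m range into the wild-type range. Il4ra was 2.67-fold lower in Bcl11bm/m than in wild-type thymocytes (log2 difference -1.35, SE 0.23, limma adjusted p = 0.00547). In cKO thymocytes the difference was -0.75 (95% interval -1.34 to -0.15, adjusted p = 0.0905).

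Il21r read 53.5, 83.7, 92.1, 87.7 and 67.8 FPKM in wild-type libraries. It read 44.1, 20.4 and 23.7 FPKM in Bcl11bm/m and 53.4, 60.9, 29.6 and 45.9 FPKM in cKO libraries. Bcl11bm/m was again entirely below wild-type, although its library 1 came close, and cKO overlapped the lower end of wild-type. The level was 2.62-fold lower in Bcl11bm/m (log2 difference -1.41, SE 0.27, limma adjusted p = 0.00933). The difference of cKO from wild-type was -0.71 (95% interval -1.21 to -0.20, adjusted p = 0.0635). Between the mutants the differences were -0.60 for Il4ra (95% interval -1.30 to 0.10, adjusted p = 0.234) and -0.71 for Il21r (95% interval -1.46 to 0.04, adjusted p = 0.195). Without wild-type library 1, Il4ra (-0.88), Il21r (-0.83) and Il2rg (-0.49) were called lower in cKO thymocytes as well. Over the 12 libraries Il4ra and Il21r correlated at r = 0.926, and at 0.765 within groups.

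Il6ra encodes the IL-6 binding chain and Il6st its signalling partner gp130. Il6ra read 0, 0.206, 0.0798, 0.155 and 0.157 FPKM in wild-type, 0, 0.154 and 0.0752 FPKM in Bcl11bm/m, and 0.304, 0.261, 0.0905 and 0.141 FPKM in cKO libraries. No library reached 1 FPKM, the groups overlapped, and the exact permutation p-values were 0.357, 0.254 and 0.171 for Bcl11bm/m against wild-type, cKO against wild-type and the mutants against each other. Il6st lay between 34.1 and 65.0 FPKM in wild-type, 55.9 and 61.5 FPKM in Bcl11bm/m, and 42.8 and 73.6 FPKM in cKO libraries. Its ranges overlapped throughout, with differences from wild-type of 0.35 (95% interval -0.10 to 0.79, limma adjusted p = 0.274) and 0.25 (95% interval -0.23 to 0.72, adjusted p = 0.470).

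Ifngr1 (chr10:19311755-19330035, plus strand) read 189, 299, 304, 323 and 293 FPKM in wild-type libraries. The Bcl11bm/m libraries read 852, 868 and 810 FPKM, and the cKO libraries 355, 273, 377 and 363 FPKM. The 3 Bcl11bm/m libraries lay close together and far above all others, wild-type library 1 was the lowest, and the remaining groups overlapped. Ifngr1 rose 2.99-fold in Bcl11bm/m to a level above 99.8% of all features (log2 difference 1.60, SE 0.20, limma adjusted p = 0.00107). It was 2.47-fold higher than in cKO thymocytes (1.31, SE 0.15, adjusted p = 0.00482), whose difference from wild-type was 0.29 (95% interval -0.12 to 0.70, adjusted p = 0.316). Ifngr2, which encodes the partner chain needed for signalling, was at 18.6 to 25.6 FPKM in wild-type, 15.0 to 17.3 in Bcl11bm/m and 17.9 to 21.7 in cKO libraries and was not called in any comparison. The ratio of Ifngr1 to Ifngr2 levels was therefore 8.73 to 16.1 in wild-type, 49.3 to 58.0 in Bcl11bm/m and 12.6 to 20.7 in cKO libraries.

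The least abundant of the chains listed for a receptor was read in each library, as a description of transcripts and not of receptors at the surface. It does not show that a cell needs or lacks that chain to respond, since Il2ra raises affinity and Il15ra can present IL-15 to neighbouring cells. In bulk libraries the chains may also come from different cells. For the IL-7 receptor this was Il7r in all libraries, at 0 to 0.0327% of the Il2rg level in wild-type, 5.35 to 10.5% in Bcl11bm/m and 0.806 to 3.95% in cKO libraries. For the high-affinity IL-2 receptor it was Il2rb in wild-type and Bcl11bm/m libraries. None of these held all 3 chains at 1 FPKM, even where Il2ra was high, whereas 3 of the 4 cKO libraries did. In those, cKO libraries 1 to 3, Il2rb read 1.18, 1.35 and 7.37 FPKM. Library 3, where Il2ra was the lowest chain at 2.19 FPKM, also had the highest summed level of NK and innate lymphoid markers, given below. The IL-15 receptor had the same pattern, with Il15ra the lowest chain in cKO library 3 at 1.98 FPKM. For the IL-4 and IL-21 receptors the private chain was the lowest in all libraries, at 12.7 FPKM or more. For the IL-6 receptor Il6ra was lowest, under 1 FPKM in each library. For the IL-9 receptor, Il9r was lowest, at 0.349 to 1.46 FPKM in wild-type, 11.5 to 19.0 in Bcl11bm/m and 7.38 to 20.9 in cKO libraries.

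**Figure D3:**
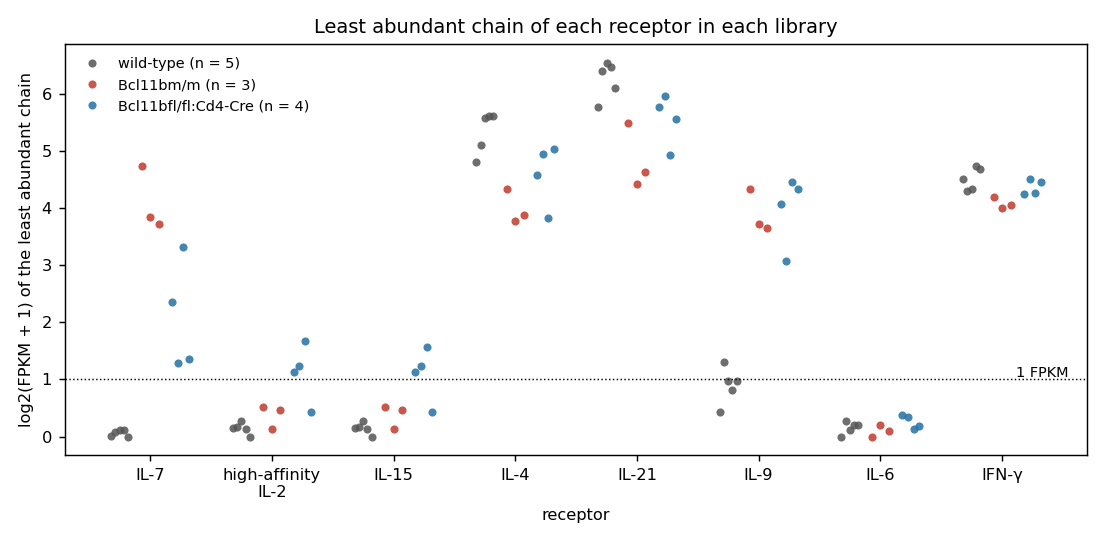
Level of the least abundant chain of each of 8 receptors, as log2(FPKM + 1), in every library of the 3 groups, with a dotted line at 1 FPKM. Wild-type lies under the line for the IL-7, IL-2, IL-15 and IL-6 receptors, and Bcl11bm/m lies above it for IL-7 but under it for IL-2, IL-15 and IL-6.

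The genes on either side of the receptor genes were read to see how far a difference reached along the chromosome, with 3 RefSeq neighbours on each side. Next to Il7r, Capsl, a calcium-binding protein gene 40.1 kb away, was listed at 0 in all 5 wild-type libraries, at 4.43, 3.59 and 1.91 FPKM in Bcl11bm/m and at 0.322, 0.245, 0.460 and 0.595 FPKM in cKO libraries. Its 3 groups were separated in the same order as those of Il7r, with exact permutation p-values of 0.0357 and 0.0159 against wild-type, the smallest possible. These p-values, and those of Spef2 below, are unadjusted. The cKO libraries were deeper than the wild-type ones and no floor was set for Capsl. Whether wild-type libraries would show a level as low as that in cKO was not tested. Spef2, a gene of sperm flagella 48.3 kb away on the other side, read 0.676 to 1.74 FPKM in Bcl11bm/m and 0.0897 FPKM or less in wild-type libraries (exact permutation p = 0.0357), and in cKO libraries it read 0.0326 to 0.163 FPKM, which overlapped wild-type (exact permutation p = 0.111). The genes farther out, Ugt3a1, Ugt3a2, Prlr and Agxt2, were at 0.164 FPKM or less in every library. All 6 neighbours were under the filter and had no limma value.

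Around Il2ra and Il15ra, neither Prkcq, Pfkfb3 and Rbm17 on one side nor Fbxo18 and Ankrd16 on the other was called in Bcl11bm/m, with log2 differences from -0.10 to 0.46 beside 3.55 and 1.80 for the receptor genes. Ankrd16 was called higher in cKO thymocytes (0.40, limma adjusted p = 0.0439). Around Il4ra and Il21r, Nsmce1, which encodes a subunit of a DNA repair complex, lies 60.7 kb before Il4ra and fell in Bcl11bm/m (-1.29, adjusted p = 0.00632) and in cKO thymocytes (-1.31, adjusted p = 0.0131). It read 28.1 to 58.8 FPKM in wild-type, 13.6 to 15.6 in Bcl11bm/m and 11.1 to 25.4 in cKO libraries, so neither mutant overlapped wild-type. Jmjd5, beyond it, fell in both mutants (-0.58, adjusted p = 0.0485, and -0.51, adjusted p = 0.0450). On the other side, Gtf3c1, a subunit gene of a polymerase III factor, differed from wild-type by -0.02 in both, and D430042O09Rik rose in both (1.37, adjusted p = 0.000524, and 0.52, adjusted p = 0.0181). In Bcl11bm/m, then, the called falls ran from Jmjd5 to Il21r, Gtf3c1 was not called, and the gene after it rose. At the ends of this stretch 4930571K23Rik was listed at 0 in every library and Gsg1l was under the filter.

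**Figure D4:**
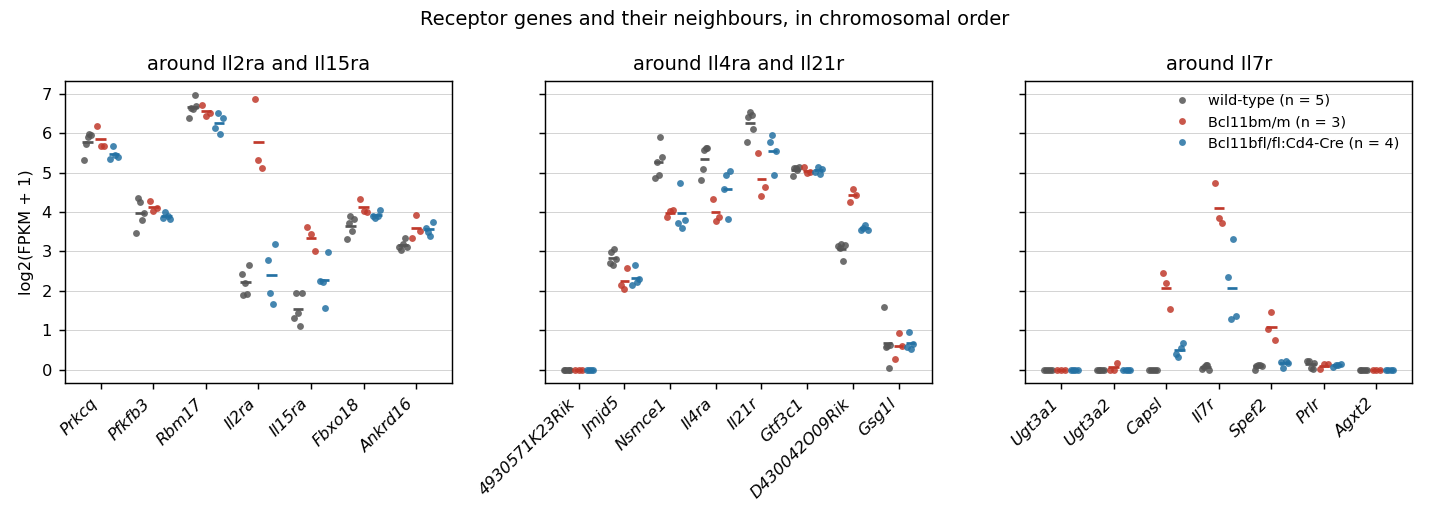
Expression as log2(FPKM + 1) of receptor genes and up to 3 neighbours on each side, in chromosomal order, around Il2ra and Il15ra, Il4ra and Il21r, and Il7r; points are libraries and bars are group means. Capsl and Spef2 beside Il7r are higher in Bcl11bm/m than in wild-type, and the neighbours of Il2ra and Il15ra differ from wild-type by at most 0.46 there.

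Genes whose pattern over the 12 libraries was most like that of a receptor gene were found by Pearson r among features past the filter. For Il7r these were Card6 (r = 0.978), Gm11346 (0.977), Zfp658 (0.977), Sema4c (0.974) and Zfp870 (0.972), and with group means removed their r with Il7r was 0.753 to 0.881. Sema4c, a semaphorin gene, had means of 0.459, 25.0 and 7.61 FPKM in wild-type, Bcl11bm/m and cKO thymocytes. For Il2ra they were Necab1 (0.967), Sbf2 (0.952), Kit (0.952), Fndc1 (0.950) and Gm15408 (0.948), with 0.485 to 0.70 within groups. Kit, the receptor for stem cell factor on early precursors, had means of 0.399, 3.01 and 0.516 FPKM. Il7r and Il2ra correlated with each other at 0.775 over all libraries and at -0.003 within groups. These correlations are over libraries that share group and depth and are given as descriptions.

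Of 54 other cytokine receptor genes, 29 passed the filter. In Bcl11bm/m 9 rose, 6 fell and 14 were not called, with a median log2 difference of 0.21 beside -0.02 over all tested features, of which 9.92% were called higher and 7.39% lower. In cKO thymocytes 6 rose, 1 fell and 22 were not called, with a median of 0.11 beside -0.09 and, over all features, 4.65% higher and 9.86% lower. The genes for the IL-12 receptor chains Il12rb2 and Il12rb1, the IL-18 receptor chains Il18r1 and Il18rap, Il9r, and Il17rb, a chain of the IL-25 receptor, rose in each mutant against wild-type. Of these Il9r, Il18r1 and Il18rap averaged under 1 FPKM in wild-type and passed the filter through their mutant libraries, so that, as for Il7r, their place among the tested genes depended on a high level there. The same holds for Flt3 and Kit, which were among the rises in Bcl11bm/m. The counts of rises and the medians beside those of all features are therefore descriptions, as are the values of Il9r and Il18r1 below. Il12rb2 went from 1.24 to 2.94 FPKM in wild-type libraries to 15.9 to 42.1 FPKM in Bcl11bm/m (log2 difference 3.04, limma adjusted p = 0.000617) and 10.4 to 40.6 FPKM in cKO libraries (3.12, adjusted p = 0.00186). Il9r, the private IL-9 chain that pairs with Il2rg, rose by 3.0 (adjusted p = 9.92e-05) and 3.08 (adjusted p = 0.000923), and Il18r1 by 2.37 (adjusted p = 2.63e-06) and 2.26 (adjusted p = 0.00415).

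Flt3 and Kit, receptors of multipotent and early T precursors, passed the filter through Bcl11bm/m alone, so their calls there (2.26 and 1.52) are given as descriptions. Flt3 reached 2.86 to 5.81 FPKM and Kit 2.95 to 3.09 FPKM in Bcl11bm/m libraries, against at most 0.872 and 0.735 FPKM in all others. The receptor genes that fell in Bcl11bm/m were Tgfbr3 (-1.99), Il17re (-1.62), Il10ra (-1.59), Tnfrsf1a (-1.38), Il27ra (-0.90) and Tnfrsf1b (-0.75). Tnfrsf1a fell in cKO thymocytes too (-0.53, adjusted p = 0.0330). In the direct comparison of the mutants 5 of the 29 were called higher, Flt3 and Kit among them, and 4 lower in Bcl11bm/m, beside 7.63% and 2.6% of all features, with Il11ra1, Il27ra and both TNF receptor genes lower.

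**Figure D5:**
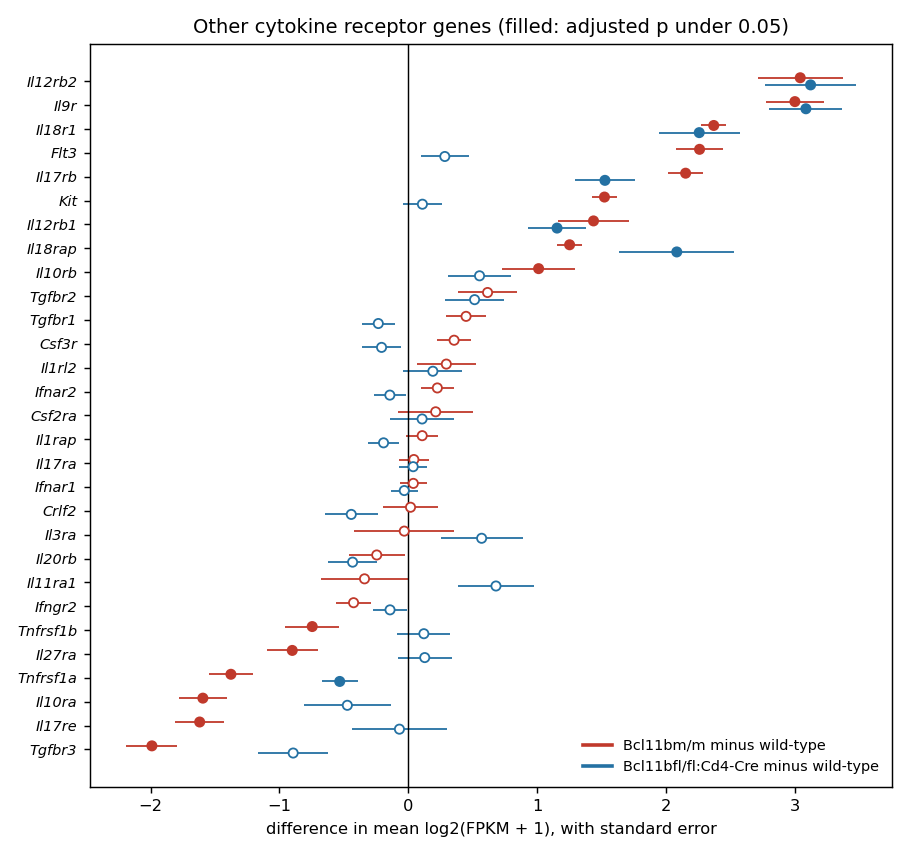
Differences from wild-type in mean log2(FPKM + 1), with standard errors, for 29 other cytokine receptor genes that passed the filter, ordered by the difference in Bcl11bm/m (red) beside that in cKO (blue); filled points have an adjusted p-value under 0.05. Il12rb2 and Il9r stand near 3 in both comparisons, and Flt3 at 2.26 in Bcl11bm/m and lower in cKO.

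Transcripts of the ligands were scarce. Of 14 ligand genes, only Il11 and Osm passed the filter, and neither was called in any comparison. Il2, Il9, Il21 and Il27 were listed at 0 in every library, and Il7 and Il15 did not exceed 0.234 FPKM. Of 32 genes that act downstream of the receptors, 30 passed the filter. In Bcl11bm/m 11 rose and none fell, with a median log2 difference of 0.38, and in cKO thymocytes 7 rose and none fell, with a median of 0.19. Over all tested features 9.92% were called higher and 7.39% lower in Bcl11bm/m, and 4.65% and 9.86% in cKO thymocytes. Jak3, the kinase bound to the common γ chain, went from 4.33 to 6.79 FPKM in wild-type to 13.3 to 22.0 in Bcl11bm/m (1.52, limma adjusted p = 0.00139) and 12.9 to 36.9 in cKO libraries (1.76, adjusted p = 0.00455).

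Irf1, an interferon-induced factor (1.64 and 1.11), Socs5, a suppressor of cytokine signals (1.37 and 0.92), and Foxo1, a factor known to act on Il7r (1.31 and 0.96), also rose in each mutant against wild-type. Myc (1.89), Stat4 (1.38), Bcl2 (0.88) and Jak1 (0.69) were called in Bcl11bm/m. Myc (1.72, adjusted p = 0.0138) and Bcl2, which encodes a survival factor downstream of IL-7 (1.20, adjusted p = 0.0215), were higher in Bcl11bm/m than in cKO thymocytes. The STAT5 genes were not called, with differences from wild-type of -0.38 and -0.36 for Stat5a and Stat5b in Bcl11bm/m and -0.39 and -0.28 in cKO thymocytes. Cish, a target of STAT5, did not pass the filter and read at most 0.168 FPKM in wild-type, 0.124 in Bcl11bm/m and 1.13 in cKO libraries. Socs2 stayed at 0.252 FPKM or less in every library.

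Markers of cells other than CD4+CD8+ thymocytes were read in the same libraries, since Il7r, Il2ra and Il2rb are also made by such cells. Cd4 and Cd8a, whose products the sort used, were at 281 FPKM or more in every library, and the CD4+CD8+ markers Cd4, Cd8b1, Rag2, Cd24a and Ptcra fell in Bcl11bm/m. In cKO thymocytes Cd24a, whose product the sort also used, fell too (-1.15, limma adjusted p = 0.00517, against -1.15, adjusted p = 0.00422, in Bcl11bm/m). It read 127 to 220 FPKM in wild-type, 72.8 to 87.5 in Bcl11bm/m and 70.7 to 98.6 in cKO libraries. Rag2 (-0.78, adjusted p = 0.0683), Cd8b1 (-0.51, adjusted p = 0.12), Cd4 (-0.38, adjusted p = 0.186) and Ptcra (-0.22, adjusted p = 0.803) did not pass in cKO thymocytes, and none of these 5 genes was called between the mutants. Over all tested features, 9.92% were called higher and 7.39% lower in Bcl11bm/m and 4.65% and 9.86% in cKO thymocytes, and markers that are low in wild-type passed the filter only through mutant libraries, so the counts of calls below are descriptions. Of 8 DN markers, all tested, 6 were called higher in Bcl11bm/m, among them Il2ra and also Kit and Hes1, which passed in this way, and 3 in cKO thymocytes, Hes1 among them. The summed level of the 7 without Il2ra was 28.4 to 63.0 FPKM in wild-type libraries. For Bcl11bm/m libraries it was 117 to 189 FPKM, and for cKO libraries 1 to 4 it was 175, 79.1, 75.3 and 187 FPKM. Il2ra was not called in cKO thymocytes, but cKO libraries 1 and 4 also had the highest Il2ra of their group (5.82 and 8.18 FPKM). Notch1 was the largest part of the sum in every library. Dtx1 came next in cKO libraries 1 and 4 (64.5 and 42.4 FPKM), whereas Kit read 0.238 to 0.735 FPKM in the cKO group. Whether Il2ra follows these markers was not tested. Of 8 NK and innate lymphoid markers, 4 were tested, of which Klrb1c passed through mutant libraries and has overlapping ranges, and all 4 were called higher in Bcl11bm/m and Id2 in cKO thymocytes. The 4 that were not tested, Ncr1, Klrd1, Klrk1 and Nkg7, read at most 0.192, 0.552, 0.124 and 1.20 FPKM in Bcl11bm/m libraries. Most of the sum there came from Id2 (26.1 to 37.3 FPKM), Fcer1g (8.83 to 40.2) and Tyrobp (8.47 to 21.2), the last 2 of which are also in the myeloid list. The summed level of the 8 was 4.12 to 8.29 FPKM in wild-type, 48.8 to 101 in Bcl11bm/m and 16.8 to 175 in cKO libraries. The highest of these was cKO library 3, which also had the highest Il2rb. In that library Klrb1c read 21.8, Klrd1 5.49, Klrk1 0.789, Fcer1g 42.2 and Id2 99.0 FPKM, each the highest of the 12 libraries, Nkg7 read 1.21 and Tyrobp 4.55 FPKM, and Ncr1 was listed at 0.

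Of 11 myeloid markers, 6 were tested. Mpeg1, Fcer1g and Tyrobp rose in Bcl11bm/m, the last 2 of which are also in the NK list, and Lyz2 (-2.05, limma adjusted p = 0.00538) and Mpeg1 (-0.62, adjusted p = 0.0404) fell in cKO thymocytes. The summed level of the 11 was 7.58 to 15.8 FPKM in wild-type, 27.9 to 108 in Bcl11bm/m and 4.56 to 48.8 in cKO libraries, with the highest value in Bcl11bm/m library 1, which also had the highest Il2ra. In that library Lyz2 read 37.7 FPKM, against at most 7.05 in wild-type, and Mpeg1 4.33, Csf1r 1.49 and Emr1 1.32 FPKM, each the highest of the 12 libraries, and Cd14, S100a8 and S100a9 were listed at 0. Itgam of the same list lay the other way, at 0.571 FPKM in that library, 0.571 to 0.791 in Bcl11bm/m and 0.527 to 0.782 in cKO libraries, against 0.760 to 4.63 in wild-type, and was not called (-0.97, limma adjusted p = 0.14 in Bcl11bm/m, and -0.99, adjusted p = 0.0811 in cKO thymocytes). The 6 receptor genes called in Bcl11bm/m were also called without library 1. Libraries 2 and 3, with summed myeloid levels of 40.5 and 27.9 FPKM, were above the wild-type range too. Leaving out library 1 therefore cannot show whether such cells had a part in the receptor values. Of regulatory T cell markers, Foxp3 was at 0.147 FPKM or less in every library, and the summed level of the 6 was 21.8 to 38.6 FPKM in wild-type, 35.7 to 39.4 in Bcl11bm/m and 33.4 to 52.0 in cKO libraries. Among post-selection markers, S1pr1 and Klf2 were called higher in each mutant, Cd5 and Nr4a1 lower in Bcl11bm/m and Cd69 lower in cKO thymocytes. Of 3 tested regulatory T cell markers, Ikzf2 was called higher in each mutant. Of 2 tested B cell markers, neither was called in Bcl11bm/m and Cd79a was called higher in cKO thymocytes. Cd79a read 10.7, 1.08 and 0.21 FPKM in Bcl11bm/m libraries 1 to 3 and at most 0.446 FPKM in wild-type. The summed level of the 5 listed B cell markers was 35.7, 7.38 and 7.81 FPKM in Bcl11bm/m libraries 1 to 3. It was 12.9 to 21.1 FPKM in wild-type and 11.3 to 27.5 in cKO libraries. Of 2 tested stromal markers, Epcam was called lower in each mutant.

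Genes of γδ and innate-like T cells also differed between the libraries. Cd163l1 and 5830411N06Rik, of the WC1 family of γδ T cells, read 36.3 to 60.8 and 48.3 to 91.2 FPKM in Bcl11bm/m and at most 0.0506 and 0.181 FPKM in wild-type libraries. In cKO libraries 1 to 4 they read 13.4, 0.42, 1.38 and 2.15 FPKM and 32.7, 2.16, 1.84 and 9.23 FPKM. Sox13 read 13.9 and 3.29 FPKM in cKO libraries 1 and 4, the libraries with the highest Il2ra in their group, and at most 1.15 FPKM in every other library. Blk (9.91 and 3.40 FPKM) and Maf (12.4 and 3.82 FPKM) were also highest in these libraries. The part of DN, NK, myeloid, γδ and post-selection cells in the receptor values was not tested.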

How the data were processed

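RNA-seq libraries of sorted pre-selection thymocytes were analysed from the table that the authors deposited, which holds FPKM per gene and library, mapped with TopHat2 (2.8.0) on mm9 and computed with Cufflinks (2.1.1) on the iGenome annotation per the submitters' processing notes and the study's methods. No scaling between libraries is stated, library chemistry is described differently in the labels and the methods, and the labels' protocol names another cell population. Values were taken as log2(FPKM + 1), which understates changes of low genes, and groups were compared pairwise with limma 3.58.1 (eBayes with a trend, R 4.3.3, two-sided). Features averaging 1 FPKM or more were tested. The limma script was tested on simulated data. Exact permutation tests (scipy 1.17.1) served genes under the filter. The receptor genes and lists were chosen with earlier results of these data known. Named list genes were at most 5 per list and comparison by size among calls, with further called genes and defining markers named after their values were seen. Other lists were ligands, downstream genes, other receptors and markers of 9 cell types, of which some markers are not reported here. Depth was estimated from FPKM steps in 3702 genes with a single transcript, where 53.6 to 61.3% of low values lay within 0.1 of whole fragments, against 20% if spread evenly. A floor of 3 fragments, per library on the shortest transcript and averaged over the group, covers counting error only. Positions come from GENCODE vM1 on NCBIM37, and promoters from RefSeq, matched for 9 of 10 genes. Alternatives were leaving out each library, a replicate block, 1 fit to all groups, quantile normalization or median-ratio scaling, a pseudocount of 0.1, no filter and a minimum average of 5 FPKM. Protein sequences were not used here.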

Additional observations from a re-analysis of the deposited data

Results flagged for a closer look

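In groups of 4 or 5 libraries, 5 of 62 groups tested for the receptor and named pathway genes held a library far from its others, where chance gives about 1 in 20, or 3.1. Il2rb read 7.37 FPKM in cKO library 3 and 0.354 to 1.35 in the other libraries of its group. Ifngr1 read 189 FPKM in wild-type library 1 and 293 to 323 in the others. Flt3 read 0.872 FPKM in cKO library 3 and 0.132 to 0.226 in the others, and Foxo1 32.8 FPKM there and 18.5 to 20.5 in the others. Il18rap read 0.0631 FPKM in wild-type library 1 and was listed at 0 in the others.

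The direct comparison of the mutants, which is also the test of a difference between their effects against wild-type, called 12 of these genes, where 10.2% of all tested features were called. The 10 pathway genes among them had been named because this comparison called them, so their number is no result. With limma, the log2 differences of Bcl11bm/m from cKO were 3.37 for Il2ra (adjusted p = 0.0121) and 1.31 for Ifngr1 (adjusted p = 0.00482). Among other receptor genes they were 1.98 for Flt3, 1.41 for Kit, -1.03 for Il27ra, -1.02 for Il11ra1 and -0.87 for Tnfrsf1b. Among downstream genes they were 1.72 for Myc, 1.20 for Bcl2, -0.60 for Pim3, 0.56 for Ptpn2 and 0.45 for Jak2. Depth differed between these groups along with genotype, and the age of the cKO libraries is not given in the labels.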

How the results depend on the processing

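Of 165 values of single receptor genes under alternatives other than leaving out a library, 153 kept their direction and side of the threshold, 5 lost and 4 gained a call and 3 turned sign. Of 192 with a library left out, 181 were kept, none lost a call, 8 gained one and 3 turned sign. Sign turned for Il2rg in Bcl11bm/m against wild-type (0.13 with quantile normalization, 0.0280 with the replicate block, -0.0805 to 0.0246 with a library left out, the highest without wild-type library 4), for Il2ra in cKO against wild-type (-0.0797 to 0.429 with a library left out, the lowest without cKO library 4) and for Il6st between the mutants (-0.0167 with median-ratio scaling, -0.0253 to 0.231 with a library left out, the lowest without cKO library 1), none of them called, and the cause was not tested. Replicate numbers did not pair the libraries, whose deviations correlated at -0.211 to 0.152 by number. With the replicate block, which costs residual degrees of freedom, receptor genes called fell from 6 to 2 (Il7r and Il2ra) in Bcl11bm/m against wild-type. They stayed at 1 in cKO against wild-type and fell from 2 to 1 (Il2ra) between the mutants, and features called fell to 293, 445 and 46. In Bcl11bm/m against wild-type the genes that lost their call had block differences of 1.79 (Il15ra), 1.70 (Ifngr1), -1.39 (Il21r) and -1.16 (Il4ra). Their main differences were 1.80, 1.60, -1.41 and -1.35. With a mean of at least 5 FPKM, fewer features were tested and 1189 and 656 were called in Bcl11bm/m against wild-type and against cKO, from 1866 and 1102. In cKO against wild-type, 2 receptor genes were called with quantile normalization (Ifngr1 added, 0.46) and 2 with all 3 groups in a single fit (Il2rg added), and between the mutants 4 in that single fit (Il7r and Il15ra added), and the cause was not tested. With a library left out, receptor genes called stayed at 6 in Bcl11bm/m against wild-type, ranged from 1 to 4 in cKO against wild-type and from 2 to 5 between the mutants, and features called ranged from 998 to 2367, from 725 to 2693 and from 288 to 1120. The 4 came without wild-type library 1 and the 5 without cKO library 3, where Il7r (2.44), Il2rg (0.53) and Il4ra (-0.86) were called too. Median-ratio scaling moved the median difference between the mutants by -0.10, and calls in cKO against wild-type from 501 higher of 1564 to 835 of 1799 (790 of 1907 with quantile normalization) and between the mutants from 822 higher of 1102 to 562 of 1090 (563 of 1054). Depth limits Il7r, Il2rb, Il6ra and, in 2 libraries, Il15ra in wild-type libraries and Il2rb and Il6ra in Bcl11bm/m libraries, where they rest on a few fragments at most.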

Other observations

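Within the cKO group, library 3 had the highest Il7r (8.96 FPKM), Il2rb (7.37), Il18r1 (11.5), Il18rap (8.66), Il17rb (46.1), Jak3 (36.9) and Irf1 (98.2 FPKM) and the lowest Il2ra (2.19), Il15ra (1.98), Il4ra (13.2) and Il21r (29.6 FPKM). Library 4 had the highest Il2ra (8.18), Il15ra (6.86) and Il4ra (31.8 FPKM) of the group. Ptcra, which encodes the pre-TCR α chain, is made by DN cells too and was counted above among the CD4+CD8+ markers, read 8.97 FPKM in library 3, 27.0 in library 2 and 67.0 and 64.7 in libraries 1 and 4. In wild-type libraries Ptcra read 29.3 to 44.5 FPKM and in Bcl11bm/m libraries 5.34 to 12.2 FPKM. Socs3, an inhibitor induced by cytokines, also varied within this group, at 14.8, 2.27, 3.13 and 22.0 FPKM in libraries 1 to 4. These values were chosen after they were seen and were not tested.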
